A study of Mus musculus with 15 samples.

Results

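Gene expression in the jejunal epithelium at 120 min after a peanut challenge was set against that at 30 min, in CC027/GeniUnc mice, a Collaborative Cross inbred strain. The members were the libraries whose titles give these times, 3 at 120 min and 3 at 30 min, which makes 6 of the 15 libraries of the series. All 6 came from mice that had been dosed by gavage with crude peanut extract, 2 mg weekly for 3 weeks and 5 mg in week 4, and later challenged by gavage with 12 mg. Both groups thus share the strain, the sensitization and the challenge, and differ by the time since the challenge. The remaining 9 libraries came from unchallenged mice dosed with PBS, unchallenged peanut-sensitized mice and mice 60 min after challenge, 3 of each, and were used for the common estimate of spread and to place the 120 and 30 min levels. Each isolate was shaken from 4 cm of jejunum, beginning 6 cm past the pylorus, after 75 min in buffer with EDTA (2 mM) and DTT (0.5 mM), so it holds crypt and villus cells in shares that were not measured, along with any lymphocytes lodged between them. Sex and age are not given in the sources used here. No group dosed with vehicle alone at these times entered the comparison, and time since peanut, time since gavage and time of day cannot be told apart.

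Jejunal epithelium renews itself from stem cells at the crypt base, where Paneth cells also sit and release alpha-defensins, small peptides that kill bacteria. Enterocytes move up the villus, take up nutrients, and make cholesterol of their own. When sterol runs low in the endoplasmic reticulum, the SREBP2 transcription factor is cut from its membrane anchor and switches on the enzymes of cholesterol synthesis, while Insig proteins hold it back when sterol is plentiful.

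Polyadenylated RNA had been sequenced with paired reads of 151 bp. The total estimated counts were 21146527, 18768703 and 22215649 in the libraries at 120 min, and 22691349, 15661513 and 19987027 at 30 min. Levels are given as CPM, the usual depth-scaled count after scaling between libraries, and 14903 genes were tested with edgeR's quasi-likelihood test. A gene is said to have risen or fallen where its p, adjusted over all 14903 genes by Benjamini-Hochberg, was under 0.05, and a positive log2 fold change means a higher level at 120 min. Over all genes, 2645 had an unadjusted p under 0.05 in edgeR. The alternative tools DESeq2 and limma-voom gave 836 and 148 genes past the threshold. Counts of these kinds in the lists below are to be read beside these shares. The median log2 fold change of all genes tested was -0.01, but it depended on level. It was -0.24 over the 4255 genes at 1 to 10 CPM, 0.04 over the 6590 genes at 10 to 100 CPM and 0.20 over the 1621 genes at 100 to 1000 CPM. Of these genes 1233, 3765 and 1371, in the same order, had positive log2 fold changes. The median and the signs of any list below are thus to be read beside the genes of its own level.

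The isolates carried the markers of epithelium, and markers of other cell types were detected at lower summed levels. All 10 epithelial identity markers were detected, among them Epcam and Vil1, and their summed level was 17723, 17516 and 17377 CPM at 120 min, against 14046, 14213 and 15724 CPM at 30 min. The 3 libraries at 120 min lay above the 3 at 30 min. Of 16 markers of T cells and intraepithelial lymphocytes, all had negative log2 fold changes, and 0 passed in edgeR, 0 in limma-voom and 2 in DESeq2, with 11 at an unadjusted p under 0.05. Their summed level ranged over 36.1 to 101.5 CPM at 120 min and over 60.4 to 361 CPM at 30 min, and these ranges overlap. The 12 markers of B and plasma cells were likewise all negative, with 0 past the threshold in edgeR and limma-voom, 5 in DESeq2 and 6 at an unadjusted p under 0.05. They summed to 144 to 486 CPM at 120 min and to 668 to 2407 CPM at 30 min, which do not overlap. Macrophage and dendritic cell markers summed to 33.1 to 48.1 CPM at 120 min and 31.7 to 116 CPM at 30 min, and mast cell markers to 20.9 to 27.9 CPM at 120 min and 33.0 to 50.8 CPM at 30 min. Mcpt4 and Tpsab1, proteases that mark mast cells, had no count in any of the 6 libraries. Fibroblast and smooth muscle markers stood at 7.36 to 8.78 CPM at 120 min, against 285, 5.29 and 16.9 CPM at 30 min, so the first library at 30 min stood apart in them. It was also the highest at 30 min in endothelial markers (47.9, 12.2 and 14.6 CPM) and in neuron and glia markers (10.2, 2.29 and 2.12 CPM). The same held for macrophage and dendritic cell markers (116, 31.7 and 55.9 CPM). Globins and Alas2, the erythroid markers, were instead higher at 120 min, with 78.2 to 88.1 CPM, against 19.1 to 54.8 CPM at 30 min. They summed to 126 to 181 CPM in sensitized unchallenged mice, 75.0 to 171 CPM in PBS mice and 14.4 to 140 CPM at 60 min. The libraries at 120 min were thus not above the unchallenged groups. Mitochondrially encoded genes took 13.7% to 16.5% of the counts at 120 min and 16.9% to 20.5% at 30 min, again without overlap. On the CPM scale of the other markers, 13 such genes summed to 133175 to 162610 CPM at 120 min and 149958 to 199446 CPM at 30 min, which overlap.

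**Figure D1:**
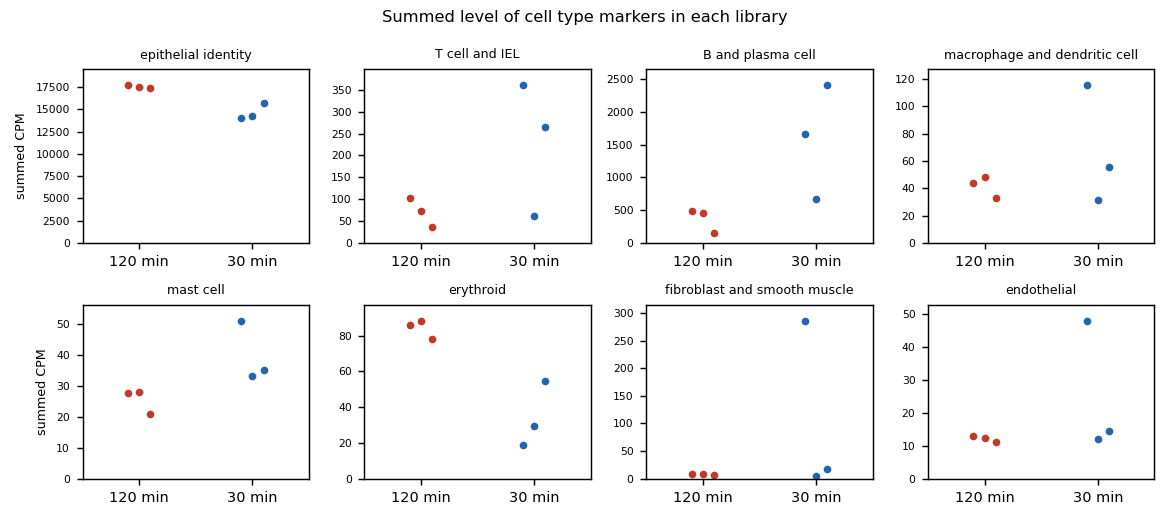
Summed level of the markers of 8 cell types (y axis, CPM, each panel with its own scale from 0) in each library at 120 min (red) and 30 min (blue); each point is 1 library. Epithelial markers at 120 min sit between 17377 and 17723 CPM, above all libraries at 30 min, B and plasma cell markers lie lower at 120 min, and 1 library at 30 min holds 285 CPM of fibroblast and smooth muscle markers.

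At 120 min, 90 genes were higher and 62 lower than at 30 min, which is 0.604% and 0.416% of the genes tested, or 1.02% together. The groups did not overlap in 22.3% of all genes tested, 12.2% being higher and 10.1% lower at 120 min. Genes that rose had a median level of 68.3 CPM over the 6 libraries and a median log2 fold change of 0.73, and in 25 of them it was over 1. Of the 62 genes that fell, 31 lay at 1 to 10 CPM, 25 at 10 to 100 CPM, 2 at 100 to 1000 CPM and 4 above that. Their median log2 fold change was -1.17, and 4 were immunoglobulin gene segments. In bulk RNA of this kind, fewer cells of a type and less RNA per cell cannot be told apart.

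Most of the difference lay between 60 and 120 min. For 85 of the 90 genes that rose, the step between 60 and 120 min was larger than that between 30 and 60 min, with medians of 0.65 and 0.13 on the log2 scale. The same held for 58 of the 62 genes that fell, with medians of -1.03 and -0.12. These steps share the libraries at 60 min, and they share the end groups with the main comparison, so they are given as values only. In 84 of the 90 genes that rose, all libraries at 120 min lay above all 12 other libraries of the series, and in 51 of the 62 that fell they lay below all 12. The 3 libraries at 30 min are among these 12, and all 90 and all 62 genes were already apart from them. The share over all genes tested is not given here, so these counts are values only. Tested on its own, 60 against 30 min gave 0 genes past the threshold in edgeR (0.0%), with 671 at an unadjusted p under 0.05, 5 genes in DESeq2 and 0 in limma-voom. At 120 against 60 min, 167 genes passed in edgeR (1.12%), among them 43 of the 90 and 32 of the 62.

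**Figure D2:**
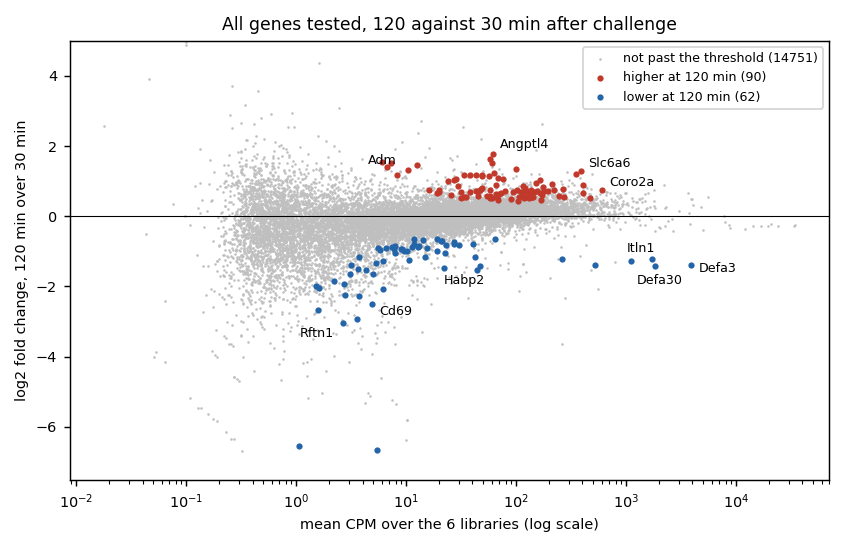
Log2 fold change of 120 min over 30 min (y axis) against the mean level over the 6 libraries (x axis, CPM, log scale) for the genes tested, with the 90 genes that rose in red, the 62 that fell in blue and the rest in grey; 16 genes outside -7.5 to 5 are not drawn. The genes that rose lie mostly between 10 and 1000 CPM. Among those that fell, the alpha-defensins Defa3, Defa30 and Defa24, with Itln1, stand at the far right, above 1000 CPM.

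Genes of cholesterol synthesis and its control were among those higher at 120 min. Of 36 members of the 3 sterol lists that could be tested, 9 rose and 0 fell. The 9 that rose were above all 12 other libraries in every library at 120 min, but so were 84 of all 90 genes that rose. Of the 12 enzymes between squalene and cholesterol, 5 rose. The median log2 fold change was 0.70 over these 12, 0.51 over the 8 genes of the mevalonate arm and 0.17 over the 16 genes of SREBP control and cholesterol uptake. All 12 enzymes from squalene onward had positive log2 fold changes, between 0.19 and 0.94, and in all 12 the groups did not overlap.

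In the mevalonate arm, Idi1, which isomerizes the isoprenoid unit, stood at 195, 156 and 246 CPM at 120 min and 103, 121 and 122 CPM at 30 min, without overlap, but did not pass (log2 fold change 0.79, adjusted p = 0.054). Fdps, the farnesyl diphosphate synthase, had 99.3, 68.2 and 133 CPM at 120 min and 67.8, 76.1 and 59.5 CPM at 30 min. Here the second library at 120 min fell inside the range of the 30 min group.

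The branch committed to sterols begins with Fdft1, squalene synthase, which had 140.3, 149.9 and 166 CPM at 120 min and 86.8, 108 and 84.0 CPM at 30 min (log2 fold change 0.71 ± 0.13, SE). Sqle, the squalene epoxidase that carries out a rate-limiting oxidation, had 169, 146 and 192 CPM at 120 min and 97.9, 108 and 97.9 CPM at 30 min. Lss closes the ring to lanosterol, and its level was 83.6, 69.0 and 102 CPM at 120 min and 38.6, 58.0 and 42.4 CPM at 30 min. In each of these 3 genes the groups were apart, most narrowly in Lss, whose second library at 120 min was near the second at 30 min. Cyp51, the lanosterol demethylase, had 174, 169 and 231 CPM at 120 min, against 99.8, 125 and 121 CPM at 30 min. Msmo1, the methylsterol monooxygenase that follows it, had 197, 186 and 215 CPM at 120 min, against 94.5, 99.7 and 118 CPM at 30 min. Msmo1 showed the highest log2 fold change of the 12 enzymes, 0.94 ± 0.15 (SE), with an adjusted p of 0.0222, and those of Lss, Sqle and Cyp51 were 0.88, 0.74 and 0.73.

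On the scale of TPM, which corrects for transcript length, Msmo1 averaged 124 ± 7.96 TPM at 120 min and 59.8 ± 8.85 TPM at 30 min (SD, n = 3 each). Lss averaged 20.8 ± 4.54 TPM at 120 min and 10.2 ± 3.03 TPM at 30 min, which placed it below Msmo1 in both groups.

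Insig1, the sterol-sensing retention factor of SREBP, had 214, 235 and 219.9 CPM at 120 min and 134, 103 and 140.0 CPM at 30 min, and it rose. Srebf2, which encodes SREBP2, had 285, 317 and 304 CPM at 120 min and 202, 255 and 252 CPM at 30 min, and its adjusted p was 0.16. The groups of both genes were apart, those of Srebf2 by the smaller margin in relation to its level. With the mitochondrial share as a covariate, 5 of the 12 enzymes from squalene onward passed, and with the level of immune markers as a covariate 0 did, with a median of 0.61. With the transcript length as an offset 2 passed, and without the first library at 120 min or the first at 30 min 0 passed in edgeR.

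**Figure D3:**
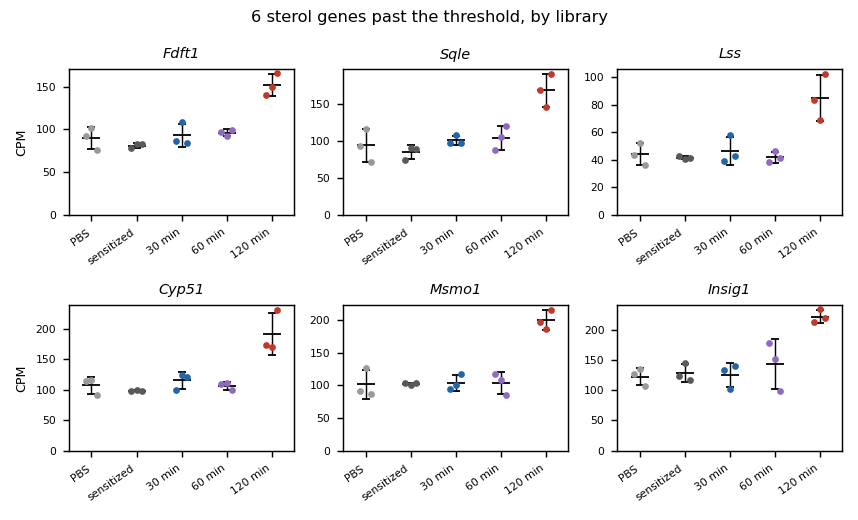
Level (y axis, CPM, from 0) of 6 of the 9 sterol genes that passed the threshold, in each library of the 5 groups (x axis, in time order with the unchallenged groups at the left); points are libraries, bars the mean and SD of 3. The libraries at 120 min lie above all 12 others in every panel, and the libraries at 60 min stay near the earlier groups in most.

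Promoters of 3 enzymes that rose are shown because these members moved together. They run from 250 bases before to 50 bases after the transcription start, taken from RefSeq on GRCm38.p6, and capitals mark each CCAAT box on either strand (CCAAT, or ATTGG where the box lies on the other strand). The windows are chr10:76531355-76531654, plus strand for Lss, chr5:4104648-4104947, minus strand for Cyp51 and chr8:64733529-64733828, minus strand for Msmo1.
Lss: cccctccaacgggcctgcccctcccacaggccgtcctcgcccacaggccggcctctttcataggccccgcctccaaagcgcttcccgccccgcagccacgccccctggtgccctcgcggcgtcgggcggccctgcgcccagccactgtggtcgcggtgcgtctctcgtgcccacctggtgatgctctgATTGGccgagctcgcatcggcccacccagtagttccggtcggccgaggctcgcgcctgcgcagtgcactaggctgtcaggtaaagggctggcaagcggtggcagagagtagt
Cyp51: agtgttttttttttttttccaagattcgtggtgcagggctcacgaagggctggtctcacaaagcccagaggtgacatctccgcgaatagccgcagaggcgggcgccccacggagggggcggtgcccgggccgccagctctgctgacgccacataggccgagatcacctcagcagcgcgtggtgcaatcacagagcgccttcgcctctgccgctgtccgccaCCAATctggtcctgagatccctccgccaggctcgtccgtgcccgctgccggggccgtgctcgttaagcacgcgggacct
Msmo1: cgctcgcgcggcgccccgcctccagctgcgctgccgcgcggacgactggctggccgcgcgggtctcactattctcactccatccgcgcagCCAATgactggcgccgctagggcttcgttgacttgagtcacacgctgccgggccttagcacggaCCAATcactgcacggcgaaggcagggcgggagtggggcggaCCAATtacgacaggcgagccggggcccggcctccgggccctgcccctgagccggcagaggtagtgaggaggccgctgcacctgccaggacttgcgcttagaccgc
Lss and Cyp51 hold 1 CCAAT box each and Msmo1 holds 3. By symbol, 26 of the 36 sterol genes had a promoter in the table, and 23 of these 26 (88.5%) held CCAAT in at least 1 listed promoter, against 41.1% of all 27025 genes with a promoter of the same length. All 9 enzymes between squalene and cholesterol that could be matched held it. The E-box CACGTG was found in 6 of the 26 (23.1%), against 8.09% of all genes. The sterol element TCACNCCAC was found in 0 of the 26 and in 1.44% of all genes, and the heat shock core GAANNTTC in 3 of the 26 (11.5%) and 9.04% of all genes. In other lists, CACGTG was in 4 of 16 hypoxia and glycolysis genes (25.0%) and 2 of 9 Paneth cell genes (22.2%), and CCAAT in 11 of the 16 (68.8%) and 3 of the 9 (33.3%). Both strands were searched and the genes were not matched for base composition. A match describes the letters in the window and nothing about binding.

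Of 18 hypoxia and glycolysis genes, 4 rose and 0 fell, with a median log2 fold change of 0.52 and 11 members higher without overlap. Pfkfb3, which makes the activator of phosphofructokinase, had 109.9, 74.1 and 77.0 CPM at 120 min and 35.9, 20.8 and 28.0 CPM at 30 min (log2 fold change 1.62 ± 0.32, SE, adjusted p = 0.0414). Pfkp, a phosphofructokinase itself, had 326, 327 and 310.4 CPM at 120 min and 222, 216 and 214 CPM at 30 min, a smaller change of 0.56 with little spread inside each group. The glucose transporter gene Slc2a1 had 54.3, 54.8 and 65.7 CPM at 120 min and 38.2, 29.6 and 36.8 CPM at 30 min. Adm, which encodes the secreted peptide adrenomedullin, was scarcer, at 13.7, 15.1 and 15.8 CPM at 120 min and 6.16, 5.86 and 5.75 CPM at 30 min, and its log2 fold change was 1.33 ± 0.28 (SE). In all 4 genes the groups were apart. Leaving out any 1 of the 6 libraries left 0 of the 18 past the threshold in edgeR, and the mitochondrial share as a covariate left 2.

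Slc6a6, the taurine transporter, had 666, 437 and 549.6 CPM at 120 min and 187, 241 and 246 CPM at 30 min (log2 fold change 1.30 ± 0.22, SE, adjusted p = 0.0258). Nfat5, the transcription factor of the response to hypertonic stress, had 70.6, 73.6 and 61.5 CPM at 120 min and 44.8, 52.7 and 46.6 CPM at 30 min, and unlike most risers it took its larger step before 60 min, when it stood at 57.9, 67.1 and 69.5 CPM. These were 2 of the 11 osmotic response genes. Nr1h4, the bile acid receptor FXR, had 154, 139 and 150.0 CPM at 120 min and 68.5, 74.5 and 100.3 CPM at 30 min. Slc51b, a subunit of the basolateral bile acid exporter, had 86.6, 60.0 and 58.0 CPM at 120 min and 36.1, 25.4 and 29.7 CPM at 30 min. The other subunit, Slc51a, had 367, 348 and 272 CPM at 120 min and 192, 185 and 247 CPM at 30 min, apart but with an adjusted p of 0.0628. Fgf15, the hormone that signals bile acid uptake to the liver, had 67.3, 74.6 and 27.1 CPM at 120 min and 8.79, 4.52 and 15.4 CPM at 30 min, a log2 fold change of 2.55 ± 0.66 (SE) with an adjusted p of 0.0924. The first and second libraries at 120 min carried most of that difference. Of the 13 FGF receptor and bile acid genes, 2 rose and 0 fell. Slc9a3, the apical sodium/proton exchanger, had 296, 134 and 233 CPM at 120 min and 98.0, 101 and 127 CPM at 30 min, with the second library at 120 min only just above the 30 min range, and was the 1 of 13 ion transport genes to rise.

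The gene most changed among those rising was Angptl4, an inhibitor of lipoprotein lipase, with 124, 54.9 and 105 CPM at 120 min, against 23.9, 24.5 and 34.0 CPM at 30 min (log2 fold change 1.79 ± 0.31, SE, adjusted p = 0.0304). It was the 1 gene past the threshold among 19 of PPAR alpha and fatty acid oxidation, whose median was 0.05. Ereg, epiregulin, a ligand of the EGF receptor, had 94.2, 116 and 57.8 CPM at 120 min and 21.8, 30.6 and 41.3 CPM at 30 min, and was the 1 of 11 EGF receptor ligands and receptors to rise. Gsta4, a glutathione transferase for lipid peroxidation products, had 41.2, 32.8 and 39.7 CPM at 120 min and 19.1, 21.9 and 21.7 CPM at 30 min. It was the 1 of 19 xenobiotic metabolism genes to rise, although all 19 had positive log2 fold changes, with a median of 0.47.

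Apobec1 and Pgap1 gave the firmest rises. Apobec1 at chr6:122577792-122602444 (mm10, minus strand) encodes the cytidine deaminase that edits Apob messenger RNA in enterocytes. Its level was 88.1, 82.3 and 91.0 CPM at 120 min and 33.6, 31.4 and 46.6 CPM at 30 min, a log2 fold change of 1.23 ± 0.16 (SE), adjusted p = 0.0071. Pgap1 at chr1:54472994-54557684 (mm10, minus strand) removes an acyl chain from the inositol of GPI anchors. It had 49.6, 51.3 and 56.5 CPM at 120 min and 20.7, 23.3 and 25.0 CPM at 30 min, a log2 fold change of 1.19 ± 0.14 (SE), adjusted p = 0.00391. In both genes every library at 120 min lay far above the 30 min range. Together with the immunoglobulin segment Ighv4-1, which fell, they were the 3 of 152 genes that passed whichever of the 6 libraries was left out. Mapk6, an atypical MAP kinase, had 495, 511 and 454 CPM at 120 min and 178, 232 and 229 CPM at 30 min (log2 fold change 1.19 ± 0.20, SE). Coro2a, a coronin, had 721, 750.5 and 812 CPM at 120 min and 343, 509 and 496 CPM at 30 min. Among scarcer genes, Syt12, Fam43a and Gnb5 rose by 1.54, 1.52 and 1.41 on the log2 scale, with means of 8.99 ± 0.558, 10.7 ± 2.47 and 9.73 ± 2.85 CPM at 120 min, and 3.08 ± 0.410, 3.73 ± 1.09 and 3.66 ± 0.372 CPM at 30 min (SD, n = 3 each). Clca3a1 also rose, by 1.46, but 40.6% of its stretches of 31 bases occur in transcripts of other genes, so reads could have been split among them. The same holds to a lesser degree for Fdft1, at 31.9%, and Syt12, at 18.2%.

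Several lists had mostly positive members without a call, and so did all genes at 100 to 1000 CPM, 1371 of 1621 being positive. Of 18 brush border digestive genes, 17 had positive log2 fold changes, 13 were higher without overlap and 0 passed, with a median of 0.49 and a lowest adjusted p of 0.168. Of 16 dietary fat absorption genes, 15 were positive and 10 higher without overlap, with a median of 0.50, and 0 passed. In edgeR, 8 of the brush border and 7 of the dietary fat genes had an unadjusted p under 0.05. DESeq2 gave 0 and 2 past the threshold, and limma-voom 0 and 0. In 0 of the 18 and 0 of the 16 were all libraries at 120 min above all 12 others. Per library, brush border genes averaged 9.205 to 9.75 log2 CPM at 120 min and 8.59 to 9.603 in unchallenged mice. Dietary fat genes averaged 8.098 to 8.514 at 120 min and 7.606 to 8.412 in unchallenged mice, so both lists overlapped. At 30 min the lists averaged 8.79 to 9.038 and 7.76 to 7.944. Whether the higher epithelial marker sum at 120 min accounts for these values was not tested. Of 17 glucocorticoid-induced genes, 0 passed in edgeR and limma-voom and 4 in DESeq2, 4 had an unadjusted p under 0.05, and the median was 0.36. The members with the largest values among them were Fkbp5, a co-chaperone of the glucocorticoid receptor, and the kinase gene Sgk1. Fkbp5 had 385, 123 and 382 CPM at 120 min and 37.4, 50.5 and 56.0 CPM at 30 min, a log2 fold change of 2.63 ± 0.72 (SE) with an adjusted p of 0.109. Sgk1 had 335, 145 and 227 CPM at 120 min and 67.8, 70.8 and 53.7 CPM at 30 min, with an adjusted p of 0.104. In both, the second library at 120 min was well below the other two, and the groups were still apart. Of 13 NRF2 antioxidant genes, 0 passed in edgeR and limma-voom and 3 in DESeq2, and 7 had an unadjusted p under 0.05, the lowest adjusted p being 0.0608 for Srxn1, the sulfiredoxin gene.

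**Figure D4:**
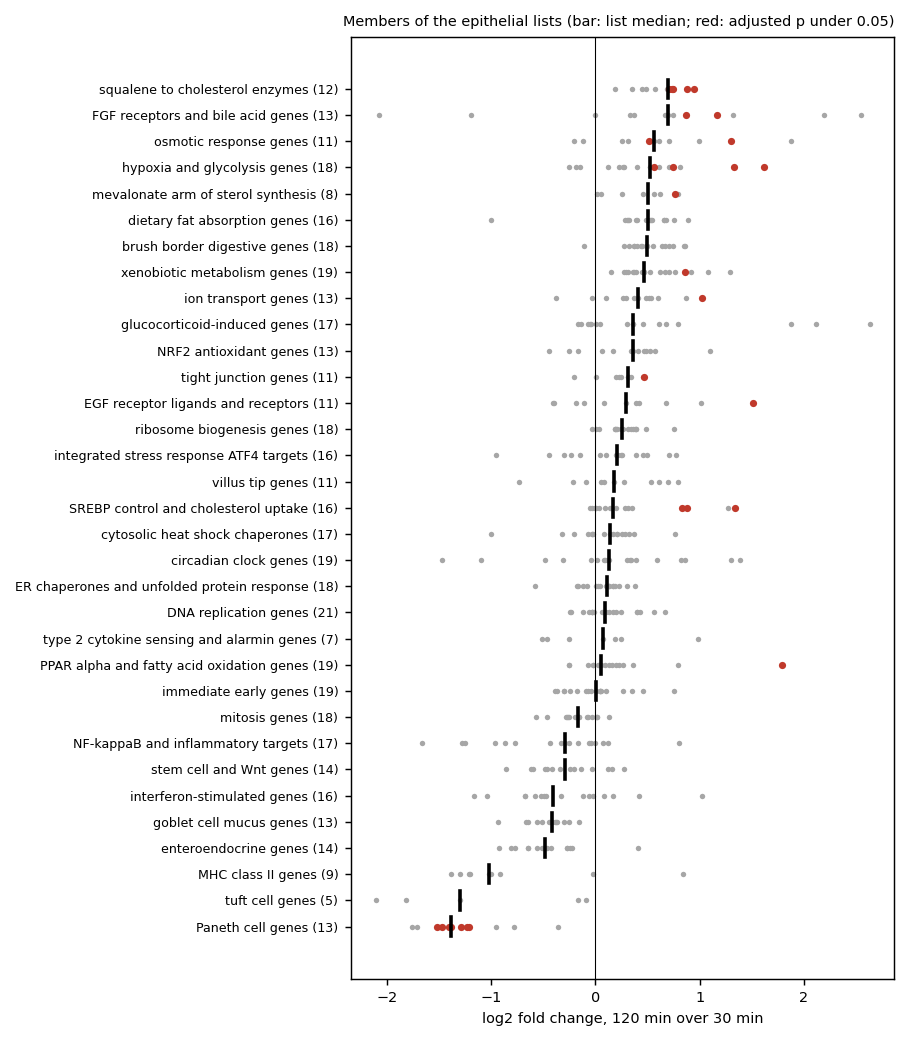
Log2 fold change of 120 min over 30 min (x axis) for the tested members of the epithelial gene lists (y axis, number of members in parentheses), with genes past the threshold in red, others in grey and the list median as a black bar. The squalene, bile acid, osmotic, glycolysis and mevalonate lists lie at the top with red points above 0. The list of SREBP control and cholesterol uptake, with a median of 0.17, lies lower. The Paneth cell list lies at the bottom with 7 red points below -1.

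Of 13 Paneth cell genes tested, 7 fell, all 13 had negative log2 fold changes, and in 10 the groups did not overlap, with a median of -1.38. Several had high counts, on a scale not corrected for length: of the 77 genes with a mean over 1000 CPM in the 6 libraries, 4 fell (Defa3, Defa30, Defa24 and Itln1), 0 rose, and the median was 0.09. Defa3 at chr8:21287409-21288377 (mm10, plus strand), an alpha-defensin, had 2196, 1683 and 2617 CPM at 120 min, against 6903, 6120.1 and 3922 CPM at 30 min. The third library at 30 min was the lowest of its group and still above all 3 at 120 min, and the log2 fold change was -1.38 ± 0.23 (SE), adjusted p = 0.0222. Defa30 had 1094, 676 and 1255 CPM at 120 min and 3426, 2913 and 1659 CPM at 30 min. Defa24 had 1036, 619 and 1434 CPM at 120 min and 2585, 3008 and 1589 CPM at 30 min. Both follow the pattern of Defa3, with the second library at 120 min lowest and the third at 30 min nearest to it. Defa17 and Defa22 fell by 1.23 and 1.52 on the log2 scale, and outside the list so did Defa29 by 1.38 and Defa36 by 1.41. The alpha-defensin genes are near-identical copies: 92.6% of the stretches of 31 bases in Defa3 transcripts also occur in those of other genes, and this share was 70.4% for Defa30, 57.1% for Defa24, 93.2% for Defa17, 91.8% for Defa22, 72.2% for Defa29 and 95.6% for Defa36. How reads were divided among these copies is uncertain, so they are best taken as 1 family and not as 7 separate results.

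The other members that fell were Itln1 and Habp2. Itln1, intelectin, a lectin that binds microbial sugars, had 595, 469 and 846 CPM at 120 min and 1495, 2055 and 1108 CPM at 30 min, a log2 fold change of -1.29 ± 0.27 (SE), adjusted p = 0.0414, and shares 3.8% of its stretches with other genes. Habp2, a serine protease gene, averaged 11.7 ± 3.72 CPM at 120 min and 32.6 ± 10.4 CPM at 30 min (SD, n = 3 each), with an adjusted p of 0.0496, and shares 7.2% of its stretches. In each the groups were apart. The groups of 3 further members, Mmp7, Ang4 and Mptx2, were apart without passing, and their sharing with other genes was not counted. Mmp7, the protease that activates alpha-defensins in mice, had 31.5, 18.1 and 36.4 CPM at 120 min and 106, 81.2 and 51.3 CPM at 30 min, with an adjusted p of 0.0541. Ang4, an antimicrobial ribonuclease, had 47.3, 29.4 and 74.2 CPM at 120 min and 152, 246 and 97.1 CPM at 30 min, with an adjusted p of 0.0823. In the other groups Defa3 stood at 5229, 3748 and 3981 CPM in PBS mice, 3522, 2509 and 3566 CPM in sensitized unchallenged mice and 4913, 5235 and 4404 CPM at 60 min, so the third library at 30 min lay inside the range of the PBS group. For 6 of the 7 genes that fell, all libraries at 120 min lay below all 12 other libraries, of which the 3 at 30 min had entered the call. The same held for 51 of all 62 genes that fell. Defa3 was the exception, with 2617 CPM in the third library at 120 min, above 1 library of sensitized unchallenged mice at 2509 CPM. Without the first library at 120 min or the first at 30 min, 0 of the 13 passed in edgeR, and limma-voom gave 4 and DESeq2 10 with all libraries. With the mitochondrial share as a covariate 1 passed, and with the immune marker level 0 did, with a median of -1.59.

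**Figure D5:**
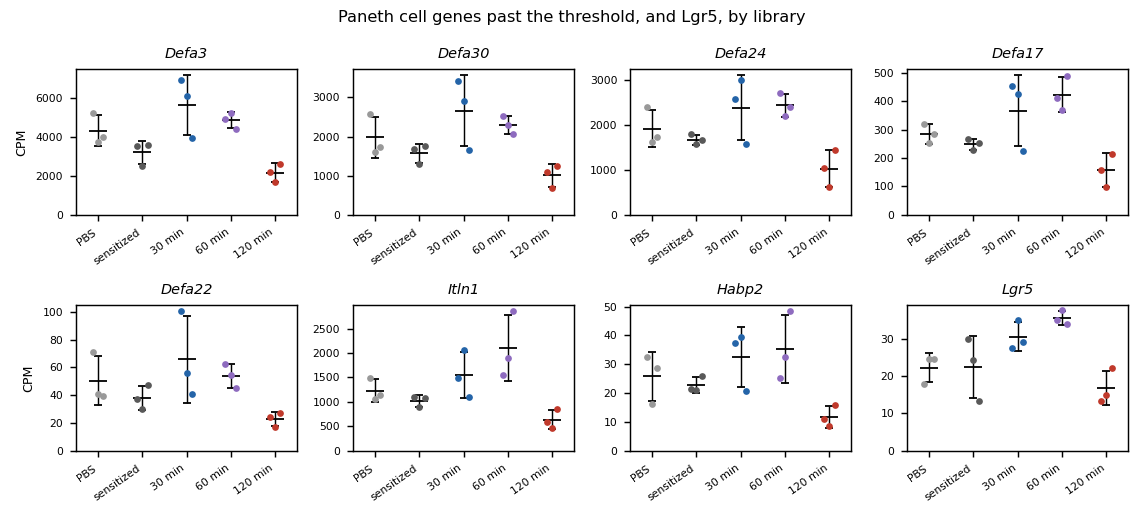
Level (y axis, CPM, from 0) of the 7 Paneth cell genes that passed the threshold and of the stem cell gene Lgr5, in each library of the 5 groups (x axis, in time order with the unchallenged groups at the left); points are libraries, bars the mean and SD of 3. The libraries at 120 min are the lowest in most panels, and Defa3 at 120 min reaches at most 2617 CPM, against at least 3922 CPM at 30 min.

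In the other crypt and secretory lists 0 genes passed in edgeR. All 5 tuft cell genes tested were negative, with a median of -1.30, near that of the Paneth cell genes, and 2 lower without overlap. They were scarce, with a mean log2 CPM of at most 1.19 in any of the 6 libraries. Of 14 enteroendocrine genes, 13 were negative, with a median of -0.49 and 0 lower without overlap. All 13 goblet cell mucus genes were negative, with a median of -0.42 and 7 lower without overlap, and 0 passed in edgeR and limma-voom and 1 in DESeq2, 3 having an unadjusted p under 0.05. Of 14 stem cell and Wnt genes, 11 were negative, with a median of -0.30, and 0 passed in edgeR and limma-voom and 2 in DESeq2, 3 having an unadjusted p under 0.05. Lgr5, which marks crypt base stem cells, had 13.4, 15.0 and 22.1 CPM at 120 min and 27.7, 35.1 and 29.2 CPM at 30 min, apart, with an adjusted p of 0.0998. Mki67, a proliferation marker, had 134, 172 and 247 CPM at 120 min and 173, 249.8 and 159 CPM at 30 min, and these ranges overlap. The 18 mitosis genes had a median of -0.16 and the 21 DNA replication genes one of 0.09, with 0 genes past the threshold in edgeR, limma-voom and DESeq2, and 1 at an unadjusted p under 0.05, in each list.

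Among scarce transcripts that fell were genes of leukocytes. Cd69, an early activation marker of lymphocytes, had 1.90, 1.08 and 1.36 CPM at 120 min, against 11.4, 3.89 and 9.37 CPM at 30 min (log2 fold change -2.50 ± 0.52, SE, adjusted p = 0.0414). Rftn1, a lipid raft protein of B cells, had 0.570, 0.754 and 0.409 CPM at 120 min and 6.68, 2.36 and 5.19 CPM at 30 min, and Fgr, a Src family kinase of myeloid cells, had 1.19, 2.15 and 1.09 CPM at 120 min and 6.16, 4.33 and 3.38 CPM at 30 min. Ighv4-1 had 0.951, 0.862 and 0.682 CPM at 120 min and 5.35, 5.48 and 8.11 CPM at 30 min (log2 fold change -2.92 ± 0.36, SE, adjusted p = 0.00391). In each the groups were apart, with the second library at 30 min nearest to the 120 min range for Cd69 and Rftn1. The B and plasma cell marker sum was also lower at 120 min, at 144 to 486 CPM against 668 to 2407 CPM at 30 min. Library by library at 30 min, that sum was 1660, 668 and 2407 CPM, and the T cell and intraepithelial lymphocyte sum was 361, 60.4 and 265 CPM. Cd69 and Rftn1 were lowest in the second library, as both sums were. Fgr was lowest in the third library and Ighv4-1 in the first. Whether leukocyte content accounts for these values was not tested. The T cell and macrophage marker sums overlapped between the groups. When the level of all immune markers entered the fit as a covariate, the log2 fold change of Cd69 was -0.93 and that of Rftn1 was -1.64, neither passing (adjusted p of 0.577 and 0.506), and 11 genes passed in all, 5 of them among the 152. That covariate does not overlap between the groups, so its part and that of time cannot be told apart. Jchain, the joining chain of secreted IgA, had 51.0, 48.6 and 19.8 CPM at 120 min and 177, 92.6 and 249 CPM at 30 min, with an adjusted p of 0.0824.

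Other scarce genes that fell lay outside the marker lists. Samd5 had 2.42, 2.96 and 1.91 CPM at 120 min and 8.14, 7.64 and 6.80 CPM at 30 min, with little spread in either group, and its log2 fold change was -1.63 ± 0.24 (SE), adjusted p = 0.0118. Fam214a had 2.90, 2.15 and 1.64 CPM at 120 min and 7.09, 5.16 and 7.01 CPM at 30 min. Parp11, a mono-ADP-ribosyltransferase, had 1.43, 1.62 and 2.09 CPM at 120 min and 4.90, 3.63 and 5.04 CPM at 30 min. In CPM, all 3 genes were below every one of the 30 min libraries at 120 min. In TPM Fam214a overlapped, with 1.26, 0.514 and 0.462 at 120 min and 3.59, 1.17 and 1.76 at 30 min. Pcbp4, Rinl, Tnfaip8l3 and Dennd4b fell by 2.28, 2.24, 1.94 and 1.50 on the log2 scale, and with the immune covariate the value of Dennd4b was -0.69. Pcbp4 also overlapped in TPM, with 0.631, 3.84 and 0.552 at 120 min and 1.74, 3.56 and 6.03 at 30 min.

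Marker genes of the immediate response and of allergy gave no call between these times. Fos, an immediate early transcription factor, had 1597, 1334 and 1623 CPM at 120 min and 1394, 1629 and 1365 CPM at 30 min (log2 fold change 0.05 ± 0.17, SE). Egr1, another, had 1110.2, 1151 and 1396 CPM at 120 min and 1183, 1945 and 1197 CPM at 30 min, and in both genes the ranges overlap. Of 19 immediate early genes, 0 passed in edgeR and limma-voom and 1 in DESeq2, and 3 had an unadjusted p under 0.05. Il33, an epithelial alarmin, had 46.0, 24.5 and 25.0 CPM at 120 min and 16.5, 12.0 and 19.8 CPM at 30 min, with an adjusted p of 0.28. Mcpt1, the mucosal mast cell protease, had 3.28, 2.15 and 1.23 CPM at 120 min and 8.26, 3.69 and 5.59 CPM at 30 min, with an adjusted p of 0.349.

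How many genes passed depended on single libraries. Without the first library at 120 min, 4 of the 152 genes passed, and without the first at 30 min 13 did. That library at 30 min was the highest of its group in fibroblast, endothelial, neuron and macrophage markers. With the 6 libraries alone, 4 passed, Mapk6 and Pgap1 among them. Fold changes moved less than the counts did: the median ratio of the log2 fold changes of the 152 to those with all libraries was 0.971 without the first library at 120 min, 0.941 without the first at 30 min and 0.982 with the 6 libraries alone. In none of the alternatives tried did any of the 152 change its sign.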

How the data were processed

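RNA of 15 jejunal epithelial isolates was compared as 120 against 30 min after challenge. The tools named in the submitters' processing notes are cutadapt 1.18 and Salmon 1.2.1, with mm10 as the build. The release of the transcript set is not given in the sources that were used. Per the file headers, the deposited tables give, for each of 139058 transcripts, an estimated count, made by the authors, and a TPM value. The other deposited columns were used only for the mean transcript length of a gene, weighted by the authors' TPM. Here the estimated counts were summed per gene with GENCODE M21 (GRCm38), 137334 transcript IDs matching with their version, and rounded. Transcripts left without a gene made up 1.08% to 1.73% of each library.

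edgeR 4.0.16 (R 4.3.3) was run with TMM scaling, filterByExpr and a robust quasi-likelihood fit of 15 libraries with a mean per group, which left 14903 genes and 10 residual degrees of freedom. The threshold was an adjusted p of 0.05, by Benjamini-Hochberg over all genes tested. DESeq2 1.42.0, limma 3.58.1 (voom), other filters, covariates and left-out libraries were alternatives. The titles carry a different number for each library, which was taken as a mouse, and replicate numbers only name libraries. Nothing else says that they came from separate animals, so the p-values measure the spread between these libraries.

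The comparison and the 46 gene lists were chosen with earlier results of these data known. Genes were named by rule: the 15 largest rises and falls past the threshold with at least 2 CPM and no overlap, the 5 most abundant in each direction, list members past the threshold or otherwise the 3 with the smallest p, and 6 fixed genes. Idi1, Fdps, Srebf2, Slc51a, Fgf15, Mmp7, Ang4, Mptx2, Defa29, Defa36 and Ighv4-1 that fall outside it were chosen after their values were seen. Sharing between genes was counted as stretches of 31 bases in GENCODE M21 transcripts. Promoters came from RefSeq (GRCm38.p6). Results of some genes that the rule names are not reported here.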

Additional observations from a re-analysis of the deposited data

How the results depend on the processing

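The 152 genes past the threshold (90 rose, 62 fell) came from edgeR with all 15 libraries. None of the 152 changed sign under any alternative in which it was tested. DESeq2 gave 836 (407 rose, 429 fell), and edgeR without a filter on low counts 249 (121 fell). Fewer passed with the 6 libraries only (4, of which 3 rose and 1 fell), the mitochondrial share as a covariate (56, 37 and 19), the immune marker level as a covariate (11, 3 and 8) and a transcript length offset (39, 26 and 13); the cause was not tested. Leaving out each of the 6 libraries gave 4 to 67 genes, with 2 to 36 that rose and 2 to 38 that fell. Fits chosen after seeing the data gave 241 (128 rose, 113 fell) without 60 min replicate 3, and 25 (11 rose, 14 fell) without both it and 30 min replicate 1. Other scaling, limma-voom, a filter at 2 CPM, leaving out mitochondrial genes and ignoring transcript versions kept the count within 148 to 202. Values that reversed belonged to genes that were not called. Log2 fold changes of Fos were -0.0612 and -0.086 with the mitochondrial and immune covariates, and -0.0063 to 0.123 with a library left out. Those of Mki67 were 0.0467 with the mitochondrial covariate and -0.348 to 0.133 with a library left out, and those of Egr1 were -0.384 to 0.0194 with a library left out. No paired analysis was possible because each title carries its own number and the replicate numbers follow accession order. With 3 libraries a group and 15661513 to 22691349 counts a library, changes of scarce genes are the least certain, and 31 of the 62 genes that fell lay under 10 CPM.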
